A study of Mus musculus with 8 samples.

Results

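The SMN complex genes were followed in mouse embryos injected with mRNA for Sm proteins or for a control. The 9 genes were taken by symbol, Smn1, Gemin2, Gemin4, Gemin5, Gemin6, Gemin7, Gemin8, Ddx20 and Strap, and all 9 were found among 21553 gene identifiers with a value. The embryos came from B6CBA F1 crosses and each zygote received mRNA for 1 of 4 things: mCherry (a fluorescent protein, the control), Snrpb, Snrpd2, or both Sm genes together. Polyadenylated RNA was taken from whole embryos 5 h after injection, when embryos were at the 1-cell stage, or 24 h after injection, at the 2-cell stage. Each of the 8 conditions was 1 library made from a pool of 40 embryos from 3 independent experiments, so no condition had a replicate and the spread between embryos was not measured.

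The SMN complex places the ring of Sm proteins on the small nuclear RNAs of the spliceosome, in the cytoplasm, before the finished particle is imported into the nucleus. SMN, the product of Smn1, holds the complex together with Gemin2, while other Gemins recognise the RNA or join the complex through each other. Snrpb and Snrpd2 encode Sm proteins, which are among the proteins that this complex handles. Around the 2-cell stage the mouse embryo degrades transcripts inherited from the egg and begins to transcribe its own genome in bulk. The level of an mRNA can therefore differ at the 2-cell stage through either process, which gene totals do not separate. The levels here are of polyadenylated RNA, relative to each library's total. Changes in polyadenylation or in the total RNA of an embryo are thus not separated either.

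The sequences just upstream of the start sites are given for some of these genes as examples. They are those of Smn1, the member with the largest fall, and of Ddx20 and Gemin2, which rose and whose windows overlap no other gene of GENCODE vM21. Gemin5, Gemin6 and Strap also rose and have windows without such an overlap, but their sequences are not printed. Each is the 250 bases before a RefSeq start site on the gene's strand in GRCm38.p6, 5′ to 3′, which is not the build of the deposited tables. Capitals mark the letters of 4 of the motifs searched on both strands. These 4 are GGGCGG (the core bound by SP and KLF factors), CCAAT (NF-Y), CCGGAAG (ETS factors) and GGATTA (OTX-type homeodomain factors).
Smn1 (chr13:100124605-100124854, plus strand): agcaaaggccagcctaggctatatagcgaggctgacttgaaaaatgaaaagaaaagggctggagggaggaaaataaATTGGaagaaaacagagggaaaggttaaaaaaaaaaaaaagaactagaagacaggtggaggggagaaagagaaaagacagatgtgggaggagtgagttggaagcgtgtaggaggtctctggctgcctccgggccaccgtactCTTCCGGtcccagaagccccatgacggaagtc
Ddx20 (chr3:105687572-105687821, minus strand): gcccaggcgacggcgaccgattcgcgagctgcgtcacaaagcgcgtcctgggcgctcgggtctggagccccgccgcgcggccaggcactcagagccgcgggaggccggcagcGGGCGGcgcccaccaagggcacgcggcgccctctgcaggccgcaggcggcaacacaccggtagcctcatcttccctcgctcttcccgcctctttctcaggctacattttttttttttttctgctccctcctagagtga
Gemin2 (chr12:59013141-59013390, plus strand): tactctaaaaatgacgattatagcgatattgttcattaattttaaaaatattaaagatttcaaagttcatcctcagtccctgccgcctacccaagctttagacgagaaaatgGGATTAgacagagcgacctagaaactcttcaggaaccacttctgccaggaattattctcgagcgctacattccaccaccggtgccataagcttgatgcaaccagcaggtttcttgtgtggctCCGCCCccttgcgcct
The Smn1 window held 6 CpG dinucleotides, the Ddx20 window 29 and the Gemin2 window 10, against a median of 6 over 32851 RefSeq windows. A second RefSeq start of Smn1 lay upstream (window chr13:100122955-100123204) and held 2. The windows of Gemin5 held 18 and 21, that of Strap 19 and that of Gemin6 7. The ETS letters were found in the printed Smn1 window, in the Gemin8 window and in 6.91% of all windows. The upstream Smn1 window held no match to any motif searched. GGATTA was found only in Gemin2 among the 11 member windows (6.25% of all windows), and GGGCGG in 7 of the 11 (32.7%), those of Ddx20, Gemin7, Gemin5 (both starts), Gemin4, Gemin2 and Gemin8. CCAAT was found in the printed window of Smn1 and in that of Gemin8 (33.8% of all windows). TATAAA, the TATA box, was in none of the 11 and in 12.4% of all windows. The other motifs searched were TGACGTCA (the CRE) and CACGTG (the E-box). TGACGTCA was only in the Gemin6 window (1.55% of all windows), and CACGTG was in none of the 11 (6.02%). These are matches of letters and not measured binding.

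Depth ranged from 39492734 to 59979046 reads per library. The injected mRNAs were found where the labels place them. Snrpb stood at 43849.91 and 11913.49 cRPKM in the 1-cell libraries given it, and at 7.96 and 6.09 cRPKM in the others. Snrpd2 stood at 17926.25 and 9141.58 cRPKM against 1.89 and 0.85 cRPKM. Here cRPKM is the deposited level, reads per kilobase of gene scaled to the library's total, so that levels of different genes can be set side by side. Oocyte and zygote markers were present in all libraries (9 of 9, summed level 7800 to 8760 cRPKM). Markers of the 2-cell stage summed to 67.3 to 81.0 cRPKM at the 1-cell stage and 216 to 229 cRPKM at the 2-cell stage over the 5 of 10 found. Cumulus and granulosa cell markers summed to 27.5 cRPKM in the 1-cell mCherry library and to 37.1 to 54.6 cRPKM in the other 1-cell libraries and to 26.0 to 36.5 cRPKM at the 2-cell stage, over 16 of 16 genes. The sperm list (6 genes, 1 of them at 0 throughout a stage) summed to 3.11 to 5.31 cRPKM. The blood and fibroblast list (7 of 8 found, 2 of them at 0 at the 1-cell stage and 1 at the 2-cell stage) summed to 7.14 to 13.9 and then 23.2 to 33.1 cRPKM, and its part in the stage changes below was not tested.

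The 9 transcripts covered a wide range of levels, and the order at the top changed between the stages. At the 1-cell stage Smn1 was the most abundant (233 ± 15.3 cRPKM), followed by Gemin7 (125 ± 21.1), Strap (60.1 ± 2.87), Gemin6 (17.7 ± 2.42) and Ddx20 (5.4 ± 0.8 cRPKM). Here and below the SD is over the 4 differently injected libraries of a stage (n = 4). The ranges of these 5 did not overlap their neighbours in the order. Gemin5 (1.06 ± 0.226), Gemin2 (0.97 ± 0.246), Gemin8 (0.952 ± 0.218) and Gemin4 (0.572 ± 0.11 cRPKM) formed a low group in which each range overlapped that of the next. At the 2-cell stage Strap (105 ± 4.32), Gemin7 (97.4 ± 11.7) and Smn1 (78.5 ± 9.43 cRPKM) came first, Strap and Gemin7 overlapping, and Gemin7 and Smn1 overlapping. Gemin6 (32.1 ± 1.91) and Ddx20 (20.0 ± 0.967) came next, each apart from its neighbours. Gemin4 (2.99 ± 0.739), Gemin2 (2.96 ± 0.591) and Gemin5 (2.71 ± 0.463 cRPKM) could not be ordered, and Gemin8 (0.468 ± 0.244) was lowest. Smn1 stood above 98.6% to 98.8% of all genes in the 1-cell libraries and above 95% to 96% in the 2-cell libraries. Its partner Gemin2 stood above only 50.7% to 55.3% and 56.2% to 63.1%.

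**Figure D1:**
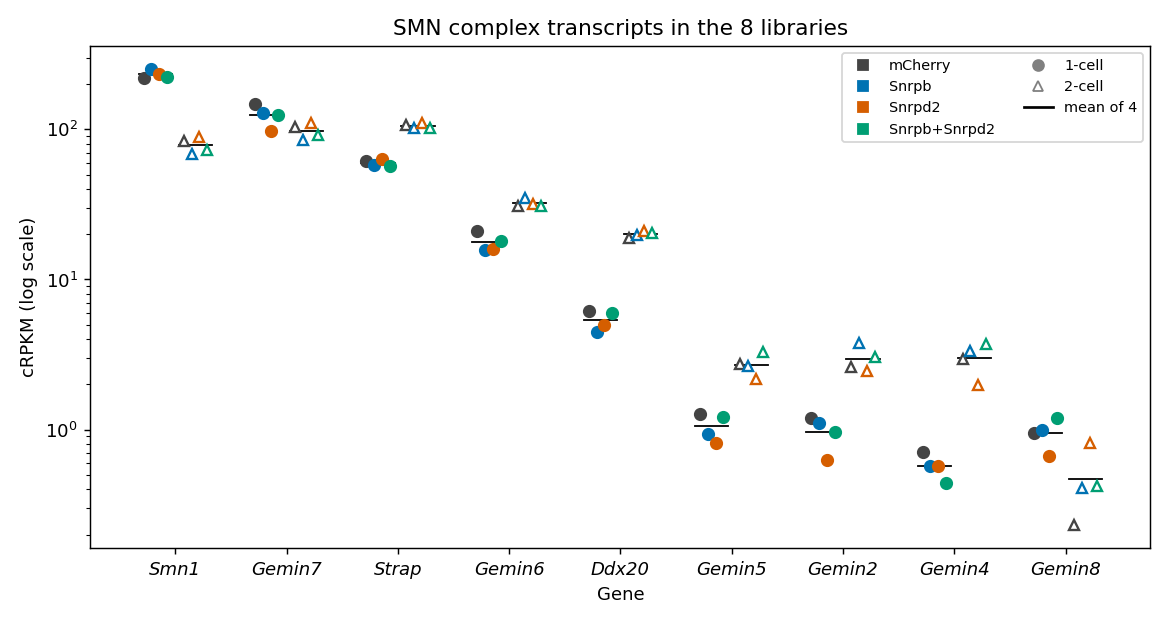
Level of each SMN complex gene (cRPKM, log scale) in the 8 libraries, filled circles for 1-cell and open triangles for 2-cell embryos, coloured by injected mRNA, with the mean of 4 libraries as a line. Smn1 lies between 219.40 and 253.41 cRPKM at the 1-cell stage and between 68.06 and 88.76 cRPKM at the 2-cell stage, while Ddx20 moves from 4.49 to 6.14 up to 18.77 to 21.00 cRPKM.

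Between the 1-cell and 2-cell stages most Gemin transcripts rose while that of SMN itself fell. Of the 9 members, 6 rose (38.1% of all 16264 genes tested rose) and 2 fell (32.0% of genes fell), and Gemin8 did not pass. The members' median log2 change was 0.61, against 0.15 over all genes tested. The test was edgeR's quasi-likelihood test on reads with terms for injection and stage and Benjamini-Hochberg adjustment over all genes, called at an adjusted p of 0.05. With 1 library per condition, the spread behind these p-values is that between differently injected pools, not between repeated ones. In pooled whole embryos, fewer cells with a transcript and less of it per cell cannot be told apart. The balance of rises and falls over all genes depends on the scaling, since the median log2 change was 0.15 with TMM and 0.41 with library totals.

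Smn1, the core of the complex, stood at 219.40 (mCherry), 253.41 (Snrpb), 234.70 (Snrpd2) and 223.12 cRPKM (both) at the 1-cell stage. At the 2-cell stage it stood at 83.61, 68.06, 88.76 and 73.37 cRPKM in the same order of injections. The lowest 1-cell library was above the highest 2-cell library by a wide margin. On TMM-scaled reads Smn1 fell 3.56-fold (log2 −1.83, SE 0.13, adjusted p = 7.55e-07, lower in 4 of 4 injections), and only 8.05% of tested genes had a lower log2 change. The fall of its mean cRPKM was 2.97-fold. Taken within each injection, the 2-cell level was 0.331 times the 1-cell level with mCherry (95% interval 0.32 to 0.343), 0.217 times with Snrpb (0.209 to 0.225), 0.303 times with Snrpd2 (0.293 to 0.313) and 0.285 times with both (0.274 to 0.296). These intervals, like all those below for single libraries, are exact conditional binomial intervals that cover counting error only.

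Gemin2, which binds SMN and holds the Sm proteins during assembly, moved the other way from a low level. Its 1-cell values were 1.19, 1.10, 0.63 and 0.96 cRPKM (mCherry, Snrpb, Snrpd2, both), and its 2-cell values 2.60, 3.76, 2.44 and 3.04 cRPKM. The 2 groups did not overlap. It rose 2.58-fold (log2 1.37, SE 0.28, adjusted p = 0.00138), by 1.91-fold with mCherry (1.4 to 2.6) and by 2.75-fold to 3.11-fold with the Sm mRNAs. Only 36 to 161 reads per library lay behind these values. In these libraries the core pair of the complex thus changed in opposite directions, Smn1 being 240 times Gemin2 in mean cRPKM at the 1-cell stage and 26.5 times at the 2-cell stage.

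Gemin5, the member that recognises the small nuclear RNAs, was at 1.28, 0.93, 0.81 and 1.22 cRPKM at the 1-cell stage and 2.74, 2.65, 2.16 and 3.29 cRPKM at the 2-cell stage. All 2-cell libraries were above all 1-cell libraries. The rise was 2.14-fold (log2 1.10, SE 0.15, adjusted p = 7.36e-05), and by injection it ran from 1.86-fold with mCherry (1.65 to 2.10) to 2.33-fold with both (2.06 to 2.64).

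Ddx20, a DEAD-box helicase also called Gemin3, and Gemin4, which binds it, had the largest rises. Ddx20 stood at 6.14, 4.49, 4.97 and 6.0 cRPKM in the 1-cell libraries and at 18.77, 19.86, 21.00 and 20.53 cRPKM in the 2-cell libraries. Its 2-cell values were close together, with a coefficient of variation of 4.83%, and lay far above the 1-cell values. It rose 3.12-fold (log2 1.64, SE 0.13, adjusted p = 1.58e-06), between 2.66-fold with mCherry (2.46 to 2.87) and 3.57-fold with Snrpb (3.29 to 3.88). Gemin4 stood at 0.71, 0.57, 0.57 and 0.44 cRPKM and then at 2.94, 3.33, 1.99 and 3.71 cRPKM. Its groups did not overlap, and the 2-cell Snrpd2 library was the lowest of its stage. The rise was 4.31-fold (log2 2.11, SE 0.25, adjusted p = 2.87e-05), from 2.79-fold with Snrpd2 (2.24 to 3.51) to 7.39-fold with both (5.79 to 9.54). Gemin4 counts are uncertain, because 3353 of its 3734 annotated exon bases also lie in exons of Glod4 on the same strand and 2875 in exons of Fam57a on the other strand (GENCODE vM21). Glod4 moved from 16.1 ± 1.73 to 7.67 ± 1.38 cRPKM and Fam57a from 51.3 ± 3.72 to 41.2 ± 5.36 cRPKM (n = 4), while Dbil5, which shares 57 bases on the other strand, moved from 0.13 ± 0.13 to 0.965 ± 0.526 cRPKM. The part of these 3 genes in the Gemin4 value was not tested.

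Gemin6 and Gemin7, which pair through folds like those of Sm proteins, went in different directions. Gemin6 stood at 20.94, 15.78, 15.88 and 18.02 cRPKM at the 1-cell stage and at 31.07, 34.93, 31.69 and 30.78 cRPKM at the 2-cell stage, with no overlap. It rose 1.53-fold (log2 0.61, SE 0.13, adjusted p = 0.00181), from 1.29-fold with mCherry (1.20 to 1.39) to 1.79-fold with Snrpb (1.65 to 1.94). Gemin7 stood at 148.44, 128.53, 97.19 and 124.90 cRPKM and then at 103.47, 84.47, 110.37 and 91.40 cRPKM, and these ranges overlapped because the 1-cell Snrpd2 library was low. On TMM-scaled reads it fell 1.52-fold (log2 −0.61, SE 0.14, adjusted p = 0.00286), and on that scale its groups did not overlap. The fall was small with Snrpd2 (0.911 times, 0.875 to 0.947) and larger with mCherry (0.606 times), Snrpb (0.531 times) and both (0.634 times). With library totals the Snrpd2 pair turned to 1.14 times and the fall over all 4 injections stayed past the threshold (adjusted p = 0.048). A stretch of 263 of the 1782 exon bases of Gemin7 lies opposite Zfp296, and Gemin6 has a processed pseudogene, so strand and multiple mapping could bear on their reads, which was not tested.

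Gemin8, which ties the Gemin6 and Gemin7 pair to SMN, was at the limit of what these libraries measure. It had 16, 18, 11 and 18 reads in the 1-cell libraries and 3, 5, 11 and 5 reads in the 2-cell libraries. The length implied by its deposited values was 303 bases, against 974 to 6169 bases for the other members, so few reads could be counted. Its level was 0.95, 0.99, 0.67 and 1.20 cRPKM and then 0.23, 0.41, 0.81 and 0.42 cRPKM, overlapping through the 2-cell Snrpd2 library. The log2 change of −1.33 had an interval from −2.83 to 0.17 and did not pass with edgeR (adjusted p = 0.101). It passed with limma on log2(cRPKM + 0.1) (log2 −0.96, adjusted p = 0.0155) and without injection terms (log2 −1.28, adjusted p = 0.0318).

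Strap, the WD-repeat protein known as unrip that joins the complex through Gemin7, was at 61.93, 57.87, 63.13 and 57.43 cRPKM at the 1-cell stage and at 106.42, 101.73, 110.88 and 102.00 cRPKM at the 2-cell stage. It was the steadiest member within a stage, with coefficients of variation of 4.77% and 4.11%, and its groups did not overlap. It rose 1.46-fold (log2 0.55, SE 0.10, adjusted p = 0.000813), and the 4 injections gave 1.41-fold to 1.54-fold. Counting levels rather than tests, all 4 of the 2-cell libraries lay above all 4 of the 1-cell libraries for 6 of 9 members (42.8% of tested genes) and below them for 1 of 9, Smn1 (24.8%).

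**Figure D2:**
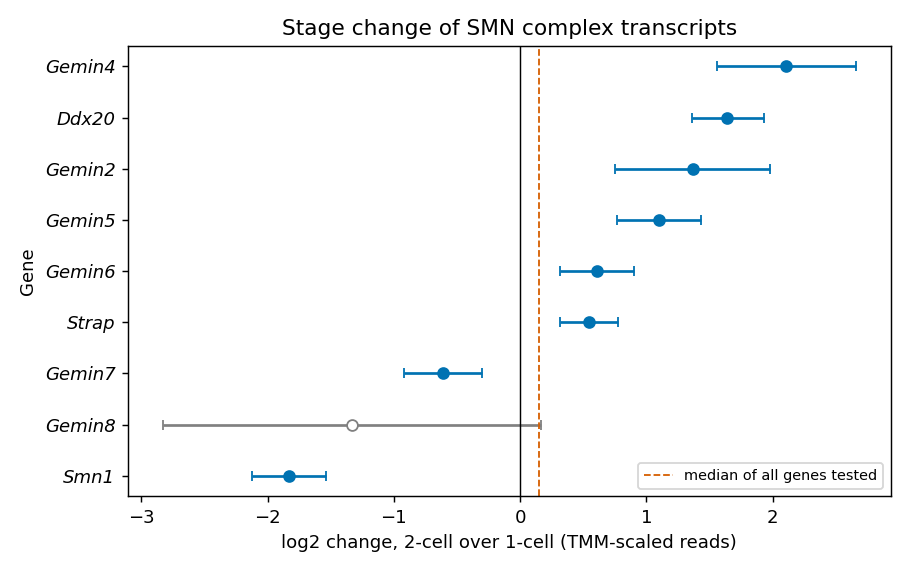
Stage change of each SMN complex gene as log2 of 2-cell over 1-cell TMM-scaled reads with its 95% interval from the edgeR fit, filled where the adjusted p was under 0.05; the dashed line is the median of all genes tested. Gemin4 (2.11) and Ddx20 (1.64) lie farthest to the right and Smn1 (−1.83) farthest to the left, and the Gemin8 interval crosses 0.

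The make-up of the SMN complex transcripts shifted with these changes. Smn1 supplied 52.5% ± 3.76 of the summed cRPKM of the 9 genes at the 1-cell stage and 22.8% ± 1.25 at the 2-cell stage (SD, n = 4). Strap went from 13.6% ± 1.09 to 30.8% ± 0.86, Gemin6 from 3.97% ± 0.488 to 9.43% ± 1.07 and Ddx20 from 1.22% ± 0.186 to 5.87% ± 0.444. Gemin7 held 28.0% ± 3.71 and 28.4% ± 1.54. Gemin2, Gemin4 and Gemin5 each stayed under 1% on average (0.875%, 0.886% and 0.798% at the 2-cell stage). The sum over the 9 genes was 418.55 to 463.67 cRPKM in the 1-cell libraries and 319.20 to 370.10 cRPKM in the 2-cell libraries. For Gemin2, Gemin4, Gemin5, Gemin6, Gemin8 and Ddx20 together it was 23.5 to 31.2 cRPKM and then 58.3 to 64.9 cRPKM. Shares depend on the unit, because reads alone, without length, gave Smn1 45.9% and 15.7%.

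**Figure D3:**
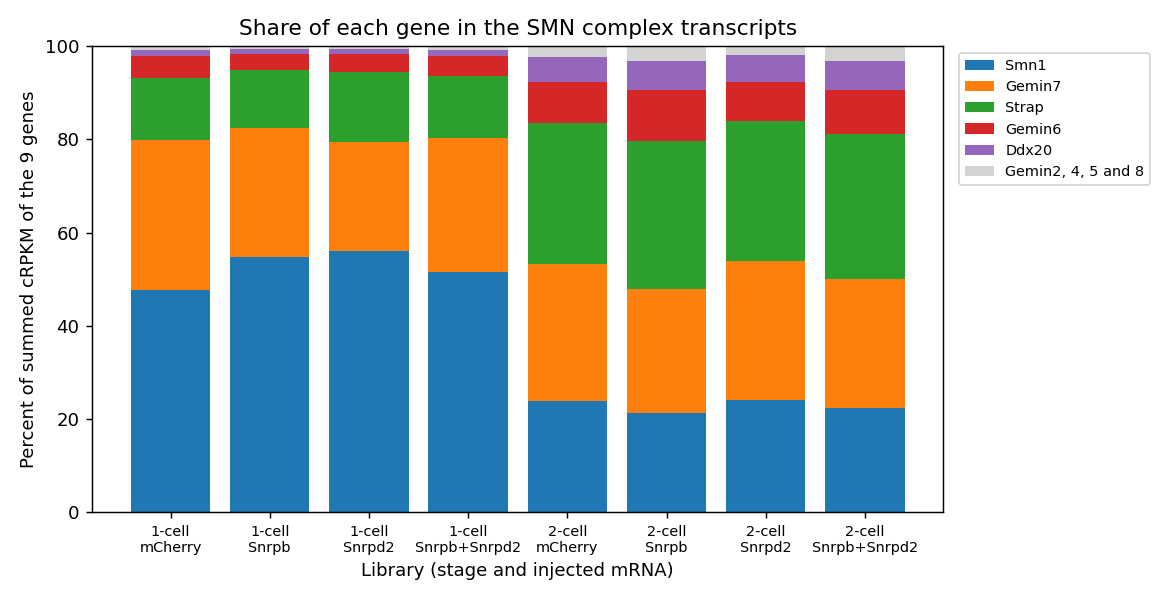
Share of each gene in the summed cRPKM of the 9 SMN complex genes, in percent, for each of the 8 libraries by stage and injected mRNA. The Smn1 part averages 52.5% in the 1-cell libraries and 22.8% in the 2-cell libraries, and the Strap part 13.6% and 30.8%.

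The 14 listed partners of the SMN complex were the PRMT5 methylation complex, cap factors and transport factors, with Coil and Zpr1 besides. Between the stages 5 of the 14 rose, Coil and Zpr1 among them, and 5 fell, with a median log2 change of −0.30. These shares are near those of all genes tested, of which 38.1% rose and 32.0% fell. The largest rises were those of Wdr77, the PRMT5 cofactor (146-fold, 0.0975 ± 0.0695 to 16.6 ± 4.27 cRPKM, edgeR adjusted p = 2.32e-08), Tgs1 and Ncbp1. Tgs1, which further methylates the small nuclear RNA cap, rose 52.4-fold (0.387 ± 0.0624 to 24.5 ± 4.94 cRPKM, adjusted p = 1.23e-08). Ncbp1 of the cap-binding complex rose 10.9-fold (0.833 ± 0.308 to 10.7 ± 2.47 cRPKM, adjusted p = 1.2e-06). The size of the Wdr77 rise rests on 1-cell values near 0 (0.05, 0.06, 0.08 and 0.20 cRPKM) and is less certain than its direction. The largest falls were those of Riok1, a PRMT5 adaptor (7.26-fold, 559 ± 41.5 to 92.2 ± 7.55 cRPKM, adjusted p = 3.17e-08), Snupn, the import adaptor snurportin (3.74-fold, adjusted p = 2.25e-06), and Phax, an export adaptor (1.68-fold, adjusted p = 0.00174). Among the 7 of 8 Sm protein genes found, 2 rose and 2 fell. Snrpg (6.08-fold) and Snrpf (1.53-fold) rose, and Snrpd3 (3.45-fold) and Snrpd1 (3.21-fold) fell. For Snrpb and Snrpd2 the stage fit mixes injected and native mRNA and says nothing of the native genes. In the libraries not given the mRNA, Snrpb went from 7.96 to 17.40 cRPKM with mCherry and from 6.09 to 26.18 cRPKM with Snrpd2, and Snrpd2 from 1.89 to 10.56 cRPKM with mCherry and from 0.85 to 5.20 cRPKM with Snrpb.

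The genes whose pattern over the 8 libraries was most like that of Smn1 were Fbxo25 (Pearson r = 0.9994), Cdca5 (0.9991) and Ap3m2 (0.9987), on log2 of TMM-scaled CPM + 1. Their levels moved from 15.9 ± 1.68 to 3.49 ± 0.619, from 266 ± 13.8 to 83.6 ± 13.8 and from 16.9 ± 0.561 to 5.91 ± 0.824 cRPKM. The measure is dominated by the stage, and 2629 genes had r above 0.95 with Smn1. Of the members, Gemin7 (0.88) and Gemin8 (0.85) had positive r with Smn1, and the other 6 lay between −0.94 and −0.99.

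No SMN complex gene passed the test for an effect of Sm mRNA injection at either stage. With the 3 Sm mRNA libraries of a stage set against the lone mCherry library, which was assumed to vary like them, 0 of 9 members passed at the 1-cell stage, and edgeR called 0.0% of the 16867 genes tested. At an unadjusted p under 0.05 there were 2618 genes and 0 members. DESeq2 called 420 genes higher and 114 lower, with no member among them, and limma on log2(cRPKM + 0.1) called 0 higher and 1 lower. The members' adjusted p ranged from 0.408 to 1.0. Smn1 had a log2 difference of 0.15 (−0.22 to 0.51), Strap of −0.02 (−0.32 to 0.27), Ddx20 of −0.23 (−0.60 to 0.15), Gemin6 of −0.31 (−0.68 to 0.06) and Gemin7 of −0.31 (−0.72 to 0.10). The wider intervals of Gemin5 (−0.96 to 0.27), Gemin4 (−1.20 to 0.44), Gemin2 (−1.33 to 0.60) and Gemin8 (−1.92 to 1.99) left larger differences undetectable with these libraries. The edgeR fit took 3 different injections as repeats, so differences between them entered its spread. It did not call even Snrpb or Snrpd2, the injected genes, so a member without a call cannot be read as unaffected. In 7 of 9 members the difference was below 0, as in 48.5% of all genes tested, and that of Strap turned to 0.05 without the 1-cell library given both. Of the 4 libraries of that stage the mCherry library was the highest in cRPKM for 6 of 9 members (Gemin2, Gemin4, Gemin5, Gemin6, Gemin7 and Ddx20), as it was for 39.1% of tested genes. The library totals behind cRPKM include reads of the injected mRNAs, which lower the cRPKM of other genes. Snrpb and Snrpd2 together took 4.88% (Snrpb), 0.46% (Snrpd2) and 1.56% (both) of reads, against 0.000934% with mCherry. The mCherry library also had the lowest sum of cumulus and granulosa markers (27.5 cRPKM), whose part in these ratios was not tested. The DESeq2 calls at this stage were made over 12649 genes with an adjusted p, which did not include Gemin8.

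At the 2-cell stage 0 of 9 members passed and 0.0% of genes were called with edgeR (637 genes and 0 members at an unadjusted p under 0.05, 0 genes with DESeq2, and 2 genes higher with limma on log2(cRPKM + 0.1)). Smn1 had a log2 difference of −0.17 (−0.53 to 0.19), Gemin7 of −0.16 (−0.57 to 0.25), Strap of −0.06 (−0.36 to 0.23), Ddx20 of 0.08 (−0.29 to 0.45) and Gemin6 of 0.02 (−0.36 to 0.40). The intervals were −0.67 to 0.55 for Gemin5, −0.78 to 0.78 for Gemin4, −0.75 to 1.15 for Gemin2 and −1.32 to 3.63 for Gemin8. Here too the edgeR fit called neither injected gene, so these results do not show a lack of effect. The difference between the effects at the 2 stages, tested in the same fit, passed for no member (adjusted p from 0.68 to 0.975) and for 0.0% of genes with edgeR (1648 genes and 0 members at an unadjusted p under 0.05). For that difference DESeq2 called 8 genes higher and 24 lower, and limma on log2(cRPKM + 0.1) called 1 higher, again without a member.

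Library by library, ratios to mCherry were mostly small. A ratio was counted when it was at least 1.5-fold, its interval lay beyond 1 and either library had at least 50 reads, which 8 of the 9 members met (not Gemin8). These ratios have no replicate check and share the mCherry library of their stage. At the 1-cell stage the Snrpb library had no member past this size (9.68% of genes were higher and 6.49% lower). The Snrpd2 library had 0 higher (12.1% of genes) and 2 lower (9.67%), Gemin2 at 0.543 times mCherry (36 against 70 reads, interval 0.353 to 0.823) and Gemin5 at 0.653 times (272 against 440 reads, 0.559 to 0.761). Gemin7 lay just outside at 0.671 times (0.648 to 0.695), and with library totals or cRPKM, at 0.655 times, it was counted as the third. The library given both had 0 higher (8.91%) and 1 lower (4.93%), Gemin4 at 0.606 times (75 against 137 reads, 0.451 to 0.809). At the 2-cell stage the Snrpb library had no member past it (8.16% higher, 6.02% lower), nor had the library given both (7.02% higher, 4.68% lower). The Snrpd2 library had 0 higher (8.39%) and 1 lower (4.91%), Gemin4 at 0.64 times (310 against 436 reads, 0.552 to 0.742). With library totals or cRPKM that ratio was 0.677, just inside the limit and no longer counted, and the ratio farthest from 1 among the counted members was that of Gemin2, 1.84-fold lower.

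Smn1 itself differed little after injection. At the 1-cell stage its ratio to mCherry was 1.23 with Snrpb (1.21 to 1.26), 1.10 with Snrpd2 (1.07 to 1.12) and 0.998 with both (0.974 to 1.02). At the 2-cell stage it was 0.807 (0.771 to 0.845), 1.00 (0.962 to 1.05) and 0.857 (0.819 to 0.897). The Snrpb library was thus the highest of its stage for Smn1 at the 1-cell stage, as for 14.4% of tested genes in cRPKM, and the lowest at the 2-cell stage. The 2-cell order of Smn1 from low to high (Snrpb, both, mCherry, Snrpd2) was shared by Gemin7, Strap and 8.76% of tested genes. Snrpb itself stood at 43849.91 and 1704.01 cRPKM in the Snrpb libraries, and a link to Smn1 was not tested.

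**Figure D4:**
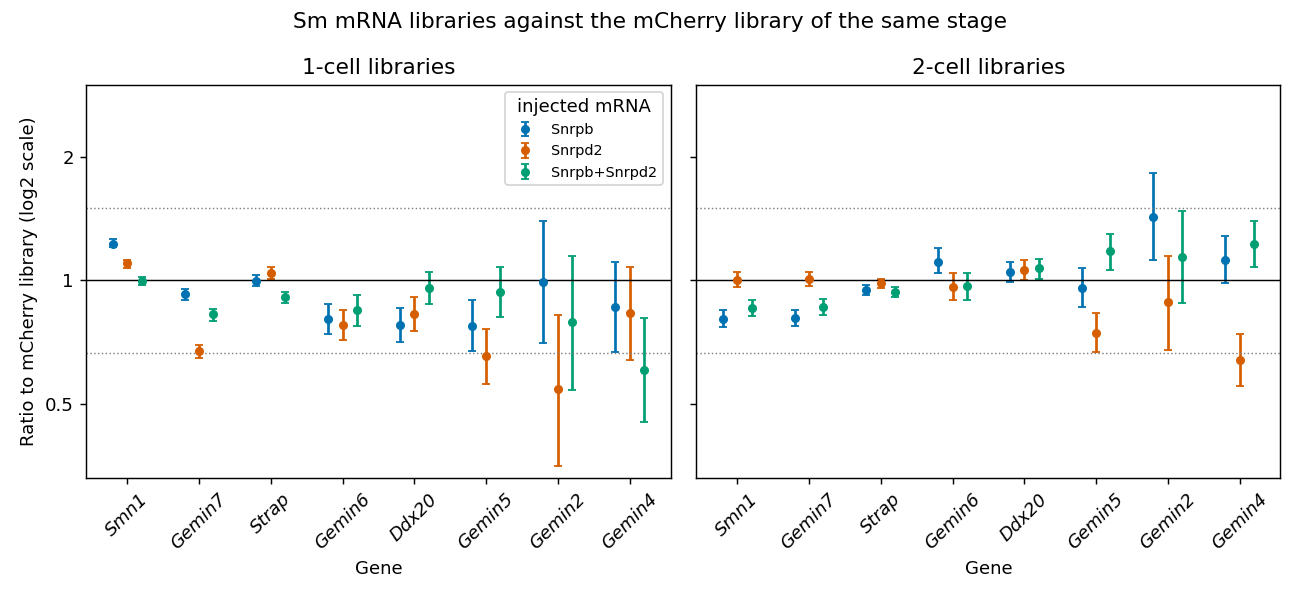
Ratio of each Sm mRNA library to the mCherry library of its stage (TMM-scaled reads, log2 axis) for the 8 members with at least 50 reads, with exact 95% counting intervals; the dotted lines mark 1.5-fold either way. Only Gemin2 and Gemin5 with Snrpd2 and Gemin4 with both lie beyond the line at the 1-cell stage, and Gemin4 with Snrpd2 at the 2-cell stage.

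The Sm injections were also compared with each other. At the 1-cell stage Snrpb against Snrpd2 gave 1 member at least 1.5-fold higher (4.61% of genes), Gemin2 at 1.83-fold (1.21 to 2.81), and 0 lower (3.09%). At the 2-cell stage the same pair gave 2 higher (9.40%), Gemin4 at 1.75-fold (1.52 to 2.03) and Gemin2 at 1.62-fold (1.26 to 2.07), and 0 lower (10.2%). The 2-cell library given both stood above the Snrpd2 library for 2 members (6.27%), Gemin4 at 1.93-fold (1.67 to 2.23) and Gemin5 at 1.58-fold (1.42 to 1.76), and below it for 0 (7.84%). The 2-cell calls share the Snrpd2 library, which had the lowest cRPKM of its stage for Gemin2, Gemin4 and Gemin5. The same library had the highest for Smn1, Gemin7, Gemin8, Ddx20 and Strap. No member was past 1.5-fold between the library given both and the Snrpb library at either stage (4.63% higher and 3.46% lower at the 1-cell stage, 5.54% and 5.68% at the 2-cell stage), nor between the library given both and the Snrpd2 library at the 1-cell stage (5.07% and 3.17%). In that last comparison Gemin5 was near the limit, at 1.44-fold (1.23 to 1.69), and was counted with library totals (1.5-fold) or cRPKM (1.51-fold).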

How the data were processed

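Each library came as 1 table with, per Ensembl gene, the deposited count of reads and the deposited cRPKM, an RPKM value made by the authors. Submitters' processing notes name mm9 as the build. Aligner, annotation, strand use and multiple mapping in counting were not given in the sources used here. Of 22667 identifiers, 1114 had no value. For 2662 genes with many reads in every library, cRPKM equalled the count over a fixed length and the library total within 0.206%. Libraries were made with the SMARTer Stranded kit, per the labels' protocols. Symbols came from GENCODE vM21 by identifier, and 20451 of the 21553 genes with a value had one.

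Counts were tested with edgeR 4.0.16 (TMM, filterByExpr, quasi-likelihood, Benjamini-Hochberg) in R 4.3.3. The stage model (injection and stage, 16264 genes, 3 residual degrees of freedom, dispersion 0.043) and a model of 4 groups, stage by Sm mRNA or mCherry (16867 genes, 4 degrees of freedom, 0.0362), used all 8 libraries. Standard errors were derived from the log2 change and its F statistic. Ratios of 2 libraries used TMM-scaled totals and 95% exact conditional binomial intervals, which cover counting error only. A count of 0 allows up to 3 reads. Alternatives were DESeq2 1.42.0, limma 3.58.1 on log2(cRPKM + 0.1 or 1), other scalings, no filter and leaving out each library. Scripts were tested on simulated data. Named genes were the 9 members, the 3 largest rises and falls among called partner and Sm genes (fewer where fewer passed), the injected genes and the 3 most like Smn1. Coil and Zpr1 fall outside this rule, and their rises were named after the values were seen. Members and lists were chosen with earlier results of these data known.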

Additional observations from a re-analysis of the deposited data

Results flagged for a closer look

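Ddx20 was set apart because every Sm mRNA library lay below mCherry at the 1-cell stage (ratios of 0.78, 0.829 and 0.959) and above it at the 2-cell stage (1.05, 1.06 and 1.07). The test of the difference did not pass: the log2 difference of the effects was 0.31 (−0.22 to 0.83, edgeR adjusted p = 0.698). The 3 libraries of a stage share 1 mCherry library. The 1-cell mCherry library was the highest of its stage in cRPKM for 39.1% of tested genes. How many genes had the full pattern of Ddx20 was not counted. Counting intervals included 1 for the 1-cell library given both (0.874 to 1.05) and the 2-cell Snrpb library (0.989 to 1.11). They lay below 1 for the 1-cell Snrpb (0.709 to 0.858) and Snrpd2 libraries (0.753 to 0.912). At the 2-cell stage the interval began at 1.0 with Snrpd2 and lay just above it with both.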

How the results depend on the processing

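Between the stages, the calls of the 8 members that passed kept their direction and stayed past the threshold in every alternative run, with Gemin7 nearest to losing it (adjusted p from 0.000182 to 0.048, log2 −0.82 to −0.35). Gemin8 passed with limma on log2(cRPKM + 0.1) (−0.96), on log2(cRPKM + 1) (−0.42) and without injection terms (−1.28). On TMM-scaled CPM, 3 members and not 1 had all 2-cell libraries lower. By reads, Smn1 made up 45.9% and 15.7% of the members.

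For injection, a 2-fold limit left 0 members in the 1-cell Snrpd2 library, 0 in the 1-cell library given both and 0 in the 2-cell Snrpd2 library, and the last was also 0 with library totals and 0 by cRPKM ratio. Between Sm injections, where alternatives were chosen after seeing the data, a 2-fold limit left 0 members in each of the 3 comparisons that had any. Both against Snrpd2 at the 1-cell stage gave 1 member with library totals and 1 by cRPKM ratio. DESeq2 called 420 genes higher and 114 lower at the 1-cell stage, and 8 and 24 for the difference between stages, against 0 with edgeR. With limma on log2(cRPKM + 0.1), 1 gene was lower at the 1-cell stage, 2 were higher at the 2-cell stage and 1 was higher for the difference. Leaving out a library gave 0 to 3 genes higher at the 1-cell stage, with 2 without 1-cell Snrpd2 and 3 without the 1-cell library given both. The cause was not tested. DESeq2 gave an adjusted p for 12649 genes at the 1-cell stage and for 13026 genes in the difference between stages, fewer than edgeR tested.

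Injection effects near 0 that changed sign, none of them past the threshold, were those of Gemin8 at the 1-cell stage (−0.03 and −0.01 with limma, −0.10 to 0.25 leaving out libraries), Strap at the 1-cell stage (−0.05 to 0.05 leaving out libraries) and Gemin4 at the 2-cell stage. Gemin4 gave 0.03 with library totals, 0.04 with totals without the injected genes, 0 without a filter and 0.01 with DESeq2, and −0.18 to 0.24 leaving out libraries. Leaving out libraries, Gemin5 ran from −0.23 to 0.10 and Gemin6 from −0.05 to 0.06 at the 2-cell stage. The stage difference of Strap was 0.04 with library totals, 0.01 with totals without the injected genes, 0.04 with either limma pseudocount and −0.10 to 0.01 leaving out libraries. The stage fit pairs the libraries of each injection, and without that pairing 6 members rose and 3 fell, Gemin8 being added. The labels give no replicate numbers for any further pairing.

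Precision is limited by 1 library per condition and, for Gemin8, by 3 to 18 reads per library.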
